A study of Mus musculus with 108 samples.

Results

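The hippocampal subfield genes described here are 8 genes of the mouse brain, Prox1, C1ql2, Dsp, Wfs1, Fibcd1, Mpped1, Spink8 and Zbtb20, chosen by symbol from the 53465 genes of the deposited count table. Each symbol matched 1 row of that table. The hippocampus is built of the dentate gyrus, whose granule cells send mossy fibres to the pyramidal cells of CA3, and of the CA fields, of which CA1 sends most of the output to cortex. Prox1, C1ql2 and Dsp are widely used to mark dentate granule cells, and Wfs1, Fibcd1, Mpped1 and Spink8 to mark CA1 pyramidal cells, although several of them are also made elsewhere in the brain. Zbtb20 is a zinc finger factor needed for CA1 neurons to take on their identity during development.

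The study asked how a loss of 1 copy of Cul3, which encodes the scaffold of an E3 ubiquitin ligase, changes the brain transcriptome. Hippocampus (HIP), the cortex of the cerebrum (CX) and cerebellum (CB) were dissected from the same mice before birth at E17.5, at postnatal day 7 (P7) and in adults that the labels call P35, and bulk RNA was sequenced from 108 libraries of 36 mice. Wild type mice (WT) and heterozygous Cul3+/- mice (HET) shared 1 background, given as C56Bl/6N in the labels and C57BL/6N in the study's methods. The HET mice carry a frame-shifting insertion in an exon of Cul3 that was made by CRISPR/Cas9 genome editing and passed through the germline, so every cell type carries it and all HET mice descend from 1 edited line. The results below use 6 WT and 6 HET mice at E17.5 and at P7, and 5 and 5 in adults, since 2 adult mice have one genotype in the labels and the other in the study's sample sheet and were left out.

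Values are CPM, the expected count of a gene relative to its library's total after TMM scaling, a correction for RNA composition, over the 102 libraries used. Library totals ran from 15126114 to 44411282 expected counts, with a median of 32663960. Cul3, the targeted gene, was lower in HET than in WT in all 9 period-by-region datasets and was the only gene called in each of them at an adjusted p of 0.1 by edgeR's quasi-likelihood test. With 5 factors of unwanted variation (RUVs) in the fit, 186, 215 and 475 genes were called in HIP at E17.5, P7 and P35, and with 3 factors 59, 130 and 195. These p-values measure only the spread between the mice sampled here. In HIP its mean fell from 188 ± 9.24 to 107 ± 6.46 CPM at E17.5 (SD, n = 6 and 6). The lowest WT HIP libraries read 172, 161 and 177 CPM and the highest HET ones 116, 103 and 103 CPM at E17.5, P7 and P35, so the genotypes did not overlap, and its log2 fold change was -0.82, -0.89 and -0.99 in that order. As a check of the dissections, 5 cerebellar markers summed to 4181 to 4958 CPM in adult WT CB and to 6.70 to 8.53 CPM in adult WT HIP. Markers of cortical layers stood less far apart between HIP and CX. In the adult, 4 of them summed to 86.1 to 96.3 CPM in WT HIP and to 284 to 341 CPM in WT CX. At E17.5 the same sums were 57.6 to 152 CPM and 165 to 418 CPM. In 13 of the 102 libraries, 5 markers of the choroid plexus summed to over 1000 CPM. The choroid plexus is a secretory tissue inside the ventricles, beside the hippocampus and cerebellum. Bulk RNA cannot tell a smaller number of cells of a type from less RNA in each cell, which holds for every level below.

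The promoters of 3 members are shown because these genes rose from E17.5 to P7 in WT HIP and their upstream window lies wholly outside the annotated gene. Each line gives the 250 bases before the RefSeq start, 5′ to 3′ on the gene's strand, on assembly GRCm38.p6, with capitals marking the E-box CANNTG, the core that helix-loop-helix factors such as Neurod1 bind. The windows are C1ql2 at chr1:120340332-120340581 on the plus strand, Dsp at chr13:38151044-38151293 on the plus strand and Fibcd1 at chr2:31846006-31846255 on the minus strand.
C1ql2: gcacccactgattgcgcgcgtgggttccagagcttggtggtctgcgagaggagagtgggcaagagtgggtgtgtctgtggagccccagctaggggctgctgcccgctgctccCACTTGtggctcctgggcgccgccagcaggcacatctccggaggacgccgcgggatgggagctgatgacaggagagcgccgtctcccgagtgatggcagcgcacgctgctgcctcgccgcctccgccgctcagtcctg
Dsp: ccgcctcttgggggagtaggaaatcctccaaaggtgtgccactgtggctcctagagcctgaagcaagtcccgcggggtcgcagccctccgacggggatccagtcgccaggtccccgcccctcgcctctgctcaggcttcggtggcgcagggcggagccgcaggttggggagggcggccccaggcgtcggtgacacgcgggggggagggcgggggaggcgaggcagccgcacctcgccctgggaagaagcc
Fibcd1: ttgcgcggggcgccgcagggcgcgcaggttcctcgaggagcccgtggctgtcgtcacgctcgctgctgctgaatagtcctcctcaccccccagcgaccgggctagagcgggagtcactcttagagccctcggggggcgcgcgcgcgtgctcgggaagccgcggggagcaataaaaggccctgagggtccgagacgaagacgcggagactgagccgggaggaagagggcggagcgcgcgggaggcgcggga
CANNTG reads as itself on both strands and stands once in the C1ql2 window and in neither of the others, while 66.2% of the 32851 promoters of the RefSeq table hold it in a window of the same length. The variant CAGATG, read on both strands, is a part of CANNTG, was not in these 3 windows and is in 14.4% of all promoters. The windows were rich in G and C, at 68.8%, 72.4% and 71.6% for C1ql2, Dsp and Fibcd1, against a median of 52.4% over all promoters, and held 20, 22 and 34 CpG dinucleotides. A promoter entry was matched for 7 of the 8 members, and Spink8 is the other.

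The members differ in size and in how cleanly they can be counted. On GRCm38 with the GENCODE annotation, C1ql2 is a single-transcript gene of 2.6 kb on chromosome 1, and Prox1 lies on the same chromosome with 52.7 kb. Dsp spans 47.3 kb of chromosome 13, Wfs1 23.1 kb of chromosome 5, Fibcd1 32.7 kb of chromosome 2, Mpped1 79.0 kb of chromosome 15 and Spink8 14.4 kb of chromosome 9. Zbtb20 is the longest, with 767 kb of chromosome 16 and 9 overlapping genes, 4 of them on the opposite strand. Prox1 overlaps 2 opposite-strand genes, Gm28172 and Prox1os, and Dsp overlaps Gm10129. The library kit keeps strand, but the strand setting of the counting is not given in the sources used here, so values of Prox1, Dsp and Zbtb20 could hold reads of these neighbours.

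**Figure D1:**
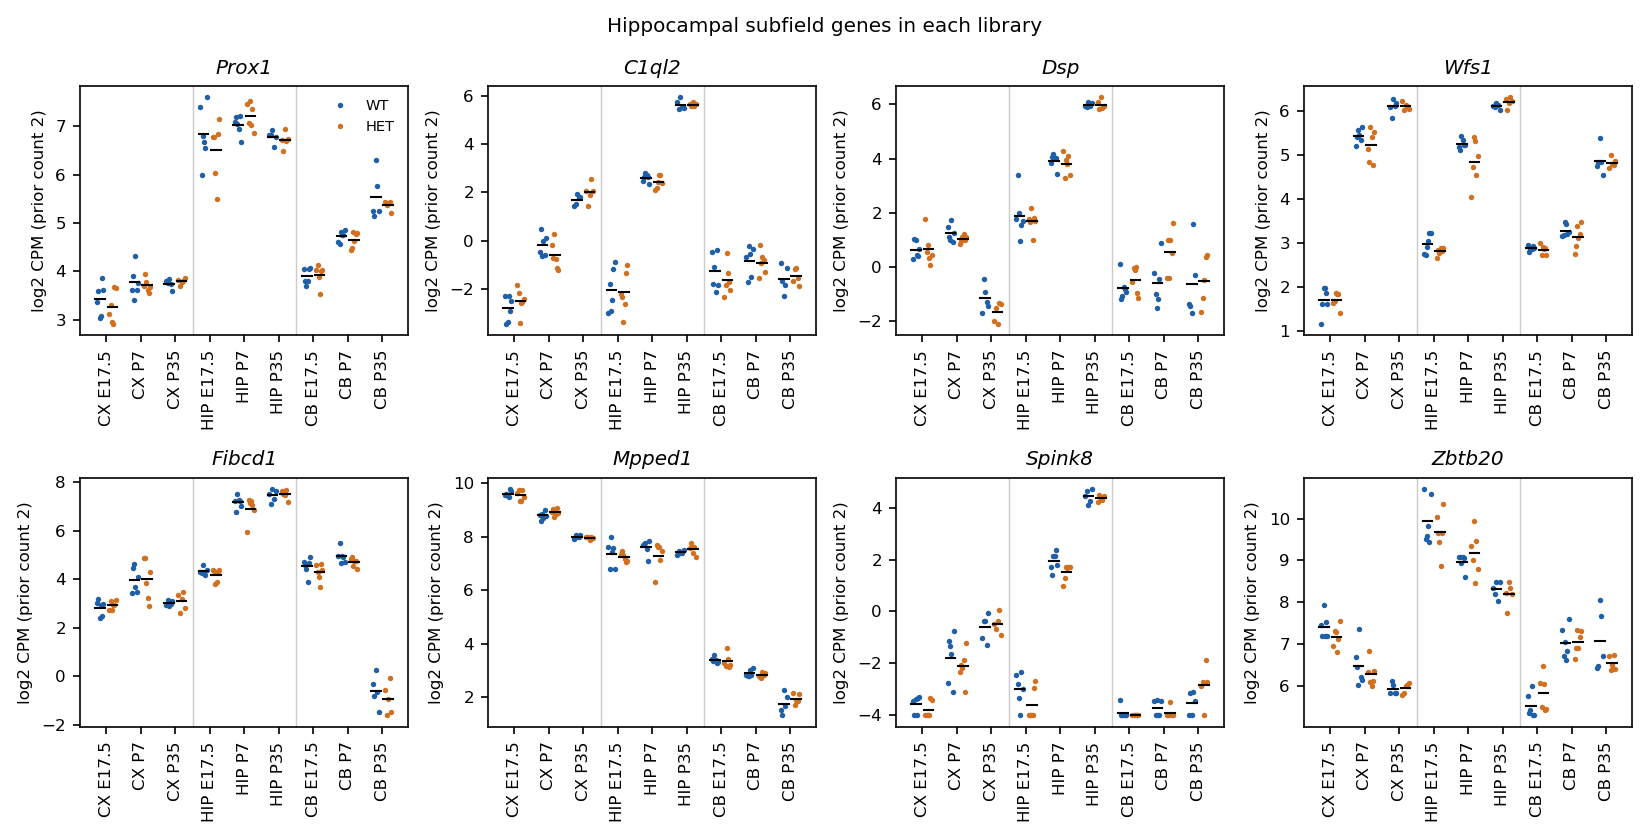
Level of each member in every library, on a log2 CPM scale with a prior count of 2, by region (CX, HIP, CB) and period, with WT in blue, HET in orange and the group mean as a black line. Prox1, C1ql2, Dsp, Fibcd1, Spink8 and Zbtb20 stand highest in HIP in the adult, Mpped1 stands highest in CX, and the 2 colours overlap in every group.

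Divided by the length of exons merged over all annotated transcripts, Mpped1 and Fibcd1 had the highest values in adult WT HIP, at 39.8 and 37.6 CPM per kb. This scale is a rough one between genes, since the transcripts in use can be shorter. The merged length was 30.73 kb over 21 transcripts for Zbtb20 and 4.75 kb over 1 for Fibcd1. Spink8 followed at 27.04, C1ql2 at 25.2, Wfs1 at 18.2, Prox1 at 13.1, Zbtb20 at 10.4 and Dsp at 6.56 CPM per kb. At E17.5 the order on the same scale was another one, with Mpped1 at 40.2, Zbtb20 at 34.3 and Prox1 at 14.6 CPM per kb. Fibcd1 then stood at 4.21, Wfs1 at 2.09, Dsp at 0.442, C1ql2 at 0.110 and Spink8 at 0.0895 CPM per kb. The range between the highest and the lowest member was thus far wider before birth than in the adult.

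Among the dentate granule genes, Prox1, the homeobox factor that granule cells need to keep their fate, was the one already high before birth. In WT HIP it ran from 63.8 to 194 CPM with a median of 107 at E17.5, and from 102 to 148 with a median of 134 at P7. The 5 adult WT libraries read 113, 112.5, 121, 94.7 and 109.6 CPM. Over the 9 WT groups the 3 HIP groups took the first 3 places and overlapped each other, and adult CB was the fourth with a mean of 48.9 ± 18.4 CPM (SD, n = 5). Its highest library, at 79.2 CPM, lay below all adult and P7 HIP libraries but above the lowest E17.5 HIP library. P7 CB followed at 26.4, E17.5 CB at 15.1 and the CX groups at 10.9 to 13.9 CPM, and from E17.5 CB downwards each group overlapped the next. Prox1 was called higher in HIP than in CX, with log2 fold changes of 3.47 ± 0.21, 3.23 ± 0.13 and 3.03 ± 0.16 (SE) at E17.5, P7 and P35 by edgeR's quasi-likelihood test. Against CB the log2 fold change was 2.98 at E17.5, 2.24 at P7 and 1.21 at P35, and HIP was higher in 6 of 6, 6 of 6 and 5 of 5 WT mice.

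C1ql2, a secreted C1q-family protein of mossy fibre synapses, was close to absent before birth. Its 6 E17.5 WT HIP libraries held 39 counts in all, from 0.0612 to 0.478 CPM, and overlapped the E17.5 CB libraries, which ran from 0.169 to 0.705 CPM. At P7 the WT HIP libraries ran from 5.07 to 7.04 CPM with a median of 6.18. The adult WT HIP libraries read 53.9, 44.7, 61.9, 46.1 and 45.1 CPM. Adult HIP, P7 HIP and adult CX, at a mean of 3.20 CPM, were the first 3 of the 9 groups and none of them overlapped the next, whereas the lower 6 groups formed a chain of overlapping ranges. Against CX its log2 fold change was 2.84 ± 0.21 at P7 and 3.95 ± 0.13 at P35, and against CB 3.45 ± 0.22 and 7.39 ± 0.18.

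Dsp, desmoplakin, ties desmosomes to intermediate filaments in epithelia and heart and is also made by dentate granule cells. In WT HIP it ran from 1.89 to 10.5 CPM with a median of 3.23 at E17.5 and from 10.7 to 17.8 with a median of 16.1 at P7. In adults the 5 libraries read 61.5, 60.3, 67.8, 61.8 and 65.6 CPM, none of them near the adult CX range of 0.245 to 0.669 CPM. Adult, P7 and E17.5 HIP were the first 3 groups in that order, and E17.5 HIP overlapped P7 CX. Against CX its log2 fold change was 1.39 ± 0.31 at E17.5, 2.68 ± 0.23 at P7 and 7.26 ± 0.45 at P35, where Dsp ranked 5 among the 18269 genes tested when ordered from the highest fold change. Against CB it was 2.80, 4.35 and 6.21 at the 3 periods. Without the libraries over 1000 CPM of choroid plexus markers the values were 1.02 against CX at E17.5 and 7.74 against CB at P35, and both were still called.

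Of the CA1 genes, Wfs1, which encodes the endoplasmic reticulum protein wolframin and is also made in the upper layers of cortex, was called higher in HIP than in CX at E17.5, slightly lower at P7 and not different in the adult. In WT HIP it ran from 6.55 to 9.37 CPM with a median of 7.85 at E17.5 and from 34.4 to 42.8 with a median of 37.6 at P7. In WT CX the same values were 2.19 to 3.91 with a median of 3.31 and 36.8 to 49.8 with a median of 43.3. Adult WT HIP read 69.4, 68.2, 72.6, 69.7 and 65.1 CPM, inside the adult CX range of 57.3 to 77.7. The log2 fold change of HIP against CX was 1.31 ± 0.13 at E17.5 (higher in 6 of 6 mice), -0.20 ± 0.05 at P7 (higher in 0 of 6) and -0.0099 ± 0.10 at P35 (higher in 3 of 5), where it was not called at an adjusted p of 0.949 by edgeR and its sign changed with upper-quartile scaling (0.0064). Against CB it was not called at E17.5 (0.10 ± 0.12) and was higher in HIP by 1.91 at P7 and 1.22 at P35.

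Fibcd1, a membrane receptor that binds acetylated sugars such as chitin, was not called between HIP and CB before birth and was far higher in HIP afterwards. In WT HIP it ran from 17.9 to 23.7 CPM with a median of 19.4 at E17.5, which overlapped the E17.5 CB range of 14.9 to 30.2. At P7 it ran from 109.9 to 181 with a median of 151 in HIP and from 25.3 to 44.4 in CB. Adult WT HIP read 183, 139, 212, 159 and 201 CPM, against 0.300 to 1.137 CPM in adult CB. The log2 fold change of HIP against CB was -0.22 ± 0.15 at E17.5, which was not called (adjusted p = 0.275 by edgeR) but was without WT mouse 4 (-0.32, adjusted p = 0.0925), then 2.16 ± 0.19 and 8.11 ± 0.20. Between P7 and adult CB the mean thus went from 31.3 to 0.653 CPM, a ratio of 0.0208, while the HIP means had a ratio of 1.22. Against CX it was higher by 1.52, 3.20 and 4.43 on that scale at E17.5, P7 and P35.

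Mpped1, a metallophosphoesterase-domain protein, stood higher in CX than in HIP in 6 of 6, 6 of 6 and 5 of 5 WT mice. The E17.5 CX libraries ran from 718 to 891 CPM with a median of 773, against 110.0 to 252 with a median of 183 in HIP. The 3 CX groups took the first 3 places, with means of 790.2, 449 and 258 CPM at E17.5, P7 and P35, and none overlapped the next in order, although the highest E17.5 HIP library lay within the adult CX range of 244 to 267 CPM. The HIP groups lay between 171 and 198 CPM and overlapped each other, and the CB groups between 3.38 and 10.4. HIP against CX gave log2 fold changes of -2.21 ± 0.16, -1.21 ± 0.09 and -0.61 ± 0.10 from E17.5 to P35, and against CB they were 4.02, 4.68 and 5.67.

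Spink8, a Kazal-type protease inhibitor, was the rarest member in CPM before birth, with 12 counts over 6 E17.5 WT HIP libraries, 4 over CX and 1 over CB. At P7 the WT HIP libraries ran from 2.62 to 5.20 CPM with a median of 3.89, and the adult ones read 21.97, 25.4, 17.53, 19.2 and 26.9 CPM. Adult CX reached a mean of 0.623 ± 0.232 CPM (SD, n = 5), below every adult and P7 HIP library. In CB the 6 P7 libraries held 3 counts and the 5 adult ones 5 counts, so the ratio of HIP to CB per count of depth was 276 at P7 (95% exact binomial interval 94.0 to 1339) and 730.1 at P35 (313 to 2250). These intervals cover counting error only. Set against CX, Spink8 had a log2 fold change of 3.84 ± 0.30 at P7 and 5.13 ± 0.18 at P35.

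Zbtb20 had its highest levels in HIP at every period. In WT HIP it ran from 694 to 1679.9 CPM with a median of 833 at E17.5 and from 386 to 541 with a median of 537 at P7. Adult WT HIP read 324, 294, 358, 262 and 357.5 CPM. The 3 HIP groups took the first 3 places without overlapping each other, and E17.5 CX followed with a mean of 174 ± 38.9 CPM (SD, n = 6), after which all groups down to E17.5 CB at 46.5 overlapped their neighbour. One adult CB library, at 265.6 CPM, exceeded the lowest adult HIP library. Set against CX, Zbtb20 had log2 fold changes of 2.56, 2.44 and 2.37 from E17.5 to P35, and against CB of 4.46, 1.83 and 1.19. The change of these differences between periods was not tested.

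Counted over the members, HIP was called higher than CX by at least 2-fold for 5 of the 6 tested at E17.5, 6 of 8 at P7 and 6 of 8 at P35. Of all genes tested, 8.92%, 4.24% and 4.8% were called and at least 2-fold higher in HIP in these comparisons, and 46.5%, 57% and 51.5% were called in either direction, as were 6 of 6, 8 of 8 and 7 of 8 members. Against CB the members higher by at least 2-fold were 4 of 6, 8 of 8 and 8 of 8, where all genes gave 5.83%, 15% and 15.3%, and the members called in either direction were the same 4, 8 and 8, where all genes gave 49.5%, 78.2% and 75.1%. The median log2 fold change against CX was 1.45, 2.76 and 3.49 over the members tested and -0.024, 0.0047 and 0.0056 over all genes, and against CB 2.89, 2.85 and 5.94 beside 0.015, -0.072 and -0.021. C1ql2 and Spink8 did not pass the filter on low counts at E17.5. Over the WT and HET libraries of the other region together, Spink8 did not pass it in P7 CX, P7 CB and adult CB, nor C1ql2 in adult CB. The lowest WT library also fell under the minimum count of 10 for Dsp in adult CX (8), adult CB (7) and P7 CB (9). The same held for C1ql2 in P7 CB (9) and Spink8 in adult CX (9). In all these comparisons the genes could enter through their HIP libraries, and a call is not evidence beyond that. The members were chosen as known hippocampal genes, so these counts describe how far each is set apart.

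**Figure D2:**
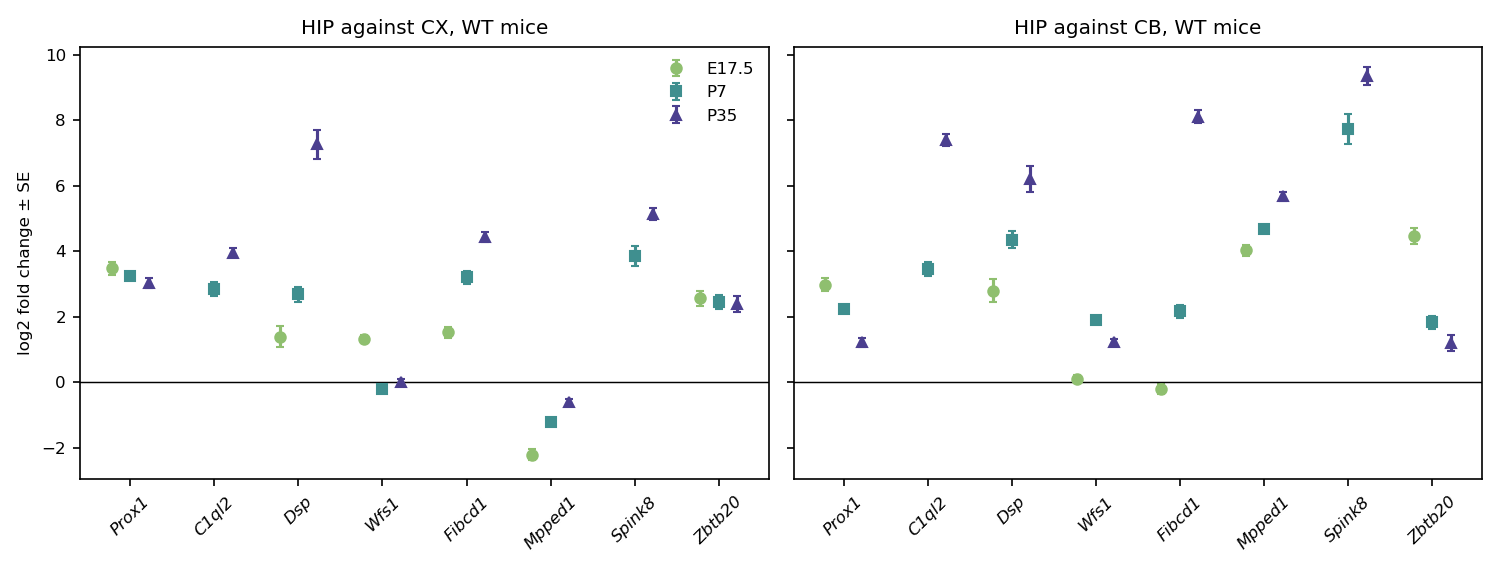
Log2 fold change of HIP against CX (left) and against CB (right) in WT mice with its SE, by member and period, from the edgeR fit with mouse as a block (n = 6, 6 and 5 mice at E17.5, P7 and P35). Dsp reaches 7.26 against CX and Spink8 9.36 against CB in the adult, and Mpped1 lies below 0 against CX at each period.

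Beside the members, 26 further genes known from hippocampal subfields or from hippocampal development were counted. Against CX, 9 of 23 tested were at least 2-fold higher in HIP at E17.5, 9 of 26 at P7 and 16 of 26 at P35, and 2, 1 and 1 were at least 2-fold lower. Their medians were 0.49, 0.57 and 1.38 on the log2 scale. Against CB, 5 of 23, 15 of 26 and 20 of 26 were at least 2-fold higher and 6, 3 and 4 at least 2-fold lower. Of all genes, 8.92%, 4.24% and 4.8% were at least 2-fold higher against CX, and 596 of 17793, 1187 of 18493 and 1274 of 18269 lower. Against CB all genes gave 5.83%, 15% and 15.3% higher, and 1537 of 17793, 2219 of 18493 and 2240 of 18269 lower. In CB, 21, 23 and 23 of the 26 passed the filter on low counts over both genotypes at E17.5, P7 and P35. In adult CX 25 passed it. Genes beyond these could enter through libraries of another region, and their calls are not evidence beyond that. Of the 26 genes, those higher than CX by at least 2-fold at all 3 periods were Grik4, a kainate receptor subunit of CA3, Cpne4, a copine of CA3, Nr3c2, the mineralocorticoid receptor, and Neurod1, a helix-loop-helix factor of granule cell development. Nr3c2 was higher by 1.76, 2.73 and 2.85, whereas Neurod1 went from 2.71 through 2.19 to 1.24 on the log2 scale, and against adult CB it was lower, by -3.96.

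With age the members fell into 3 patterns in WT HIP. C1ql2 and Spink8 rose over both steps by large amounts, with log2 fold changes of 4.61 ± 0.25 and 5.59 ± 0.29 (SE) from E17.5 to P7 and of 3.07 ± 0.17 and 2.55 ± 0.18 from P7 to P35 by edgeR's quasi-likelihood test. As ratios of summed counts, the first step was 24.6 for C1ql2 (17.9 to 34.7) and 50.8 for Spink8 (28.9 to 98.6), the brackets giving 95% exact binomial intervals. Dsp, Wfs1 and Fibcd1 rose too, by 1.77 ± 0.28, 2.25 ± 0.09 and 2.86 ± 0.12 in the first step and by 2.08 ± 0.28, 0.88 ± 0.08 and 0.31 ± 0.12 in the second. The second step of Fibcd1 had an adjusted p of 0.033, and of 0.127 without the libraries rich in choroid plexus markers.

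Zbtb20 fell by 1.07 ± 0.20 from E17.5 to P7 and by 0.64 ± 0.21 from P7 to P35 on the log2 scale, and its P7 and adult ranges in HIP did not overlap. Prox1 and Mpped1 were not called over either step, at 0.09 ± 0.19 and 0.19 ± 0.17 in the first and -0.22 ± 0.20 and -0.19 ± 0.18 in the second. In HET mice Prox1 was called over both steps, at 0.60 (adjusted p = 0.014) and -0.47 (adjusted p = 0.07) by edgeR, while the test of a genotype difference that varies with period gave an adjusted p of 0.997 for it. In the first step 5 of 8 members were called and at least 2-fold higher, where all genes gave 17.8%, and 6 of 8 were called, where all genes gave 78%. C1ql2 and Spink8 are among these 5 and did not pass the filter on low counts in E17.5 HIP. Both entered the fit through their later libraries, so their calls in this step are not evidence beyond that. In the second step these were 3 of 8 beside 7.95% and 6 of 8 beside 62.7%. The median over the members was 2.01 and 0.59, and over all genes -0.0046 and -0.01. Each mouse gave tissue at 1 period, so age cannot be told apart from any difference in how the periods were collected.

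The steps outside HIP are given as ratios of WT group means, with no test. From E17.5 to P7 the CX ratio was 13.3 for Wfs1, against 4.81 in HIP, and 9.54 for C1ql2, against 27.6. In CX the later ratio was 0.173 for Dsp and 0.496 for Fibcd1, while in HIP both were above 1, at 4.17 and 1.22. For Prox1 the CB ratios were 1.75 and 1.85, and the HIP ratios 1.07 and 0.842. For Zbtb20 the first ratio was 2.90 in CB and 0.479 in HIP, so CB rose in mean where HIP fell. Of the 26 companion genes, 15 were called and at least 2-fold higher in HIP at P7 than at E17.5 and 4 at least 2-fold lower, and 11 and 2 over the later step. All genes gave 17.8% and 7.95% higher over the 2 steps, and 2406 and 1910 of 18429 lower. The 4 development genes went mostly the other way, with 3 of 4 at least 2-fold lower in the first step, Neurod1 by -1.49. In E17.5 HIP 24 of the 26 companion genes passed the filter on low counts over both genotypes. The others could enter through later libraries, so their calls in the first step are not evidence beyond that.

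Between genotypes no member was called in HIP at an adjusted p of 0.1. At E17.5, 0 of the 6 members tested were called, where all genes gave 0.00586%, and at P7 and P35 0 of 8 were called, where all genes gave 0.00563% and 0.00584%, which is Cul3 alone. At an unadjusted p under 0.05 there were 0, 1 and 0 members, where all genes gave 2.29%, 5.05% and 6.25%. DESeq2 called no member in HIP either, where it called 0.00586%, 0.0338% and 0.0175% of all genes. Prox1 ran from 44.9 to 142 CPM with a median of 109 in E17.5 HET, from 117 to 184 with a median of 148 at P7, and read 104, 89.3, 122, 104 and 107 CPM in the adult HET libraries. Its log2 fold change was -0.34 ± 0.29, 0.21 ± 0.12 and -0.059 ± 0.073 (SE), and the genotypes overlapped at each period. For C1ql2 the P7 HET libraries ran from 4.21 to 6.61 CPM with a median of 5.30 and the adult ones read 50.6, 47.9, 54.1, 47.5 and 51.5. Its log2 fold change was -0.17 ± 0.12 at P7 and 0.0029 ± 0.080 at P35, and its E17.5 values were not tested.

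Spink8 in P7 HIP had the smallest unadjusted p of the members in HIP by edgeR. The HET libraries ran from 1.92 to 3.25 CPM with a median of 3.19, and the WT libraries from 2.62 to 5.20 with a median of 3.89. The log2 fold change was -0.43 ± 0.18 with an unadjusted p of 0.0313 and an adjusted p of 0.833 by edgeR, and the adjusted p stayed between 0.502 and 0.995 over the alternatives tried. In adults the HET libraries read 19.0, 22.5, 20.6, 19.7 and 22.01 CPM and the log2 fold change was -0.093 ± 0.10. It was -0.25 ± 0.073 without the adult libraries rich in choroid plexus markers (adjusted p = 0.218 by edgeR), -0.17 without WT replicate 3 and -0.013 without WT replicate 6. The 2 genotypes overlapped at both ages.

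Wfs1 in P7 HET HIP ran from 16.5 to 42.7 CPM with a median of 28.8, below the WT median of 37.6. Its log2 fold change was -0.35 ± 0.18 (adjusted p = 0.833 by edgeR) and it was called only when 5 factors of unwanted variation were fitted, at -0.33 with an adjusted p of 0.0392, a setting in which 1.21% of all genes were called. With all 8 P7 members in view, 6 lay below 0 with a median of -0.19, against 0.0069 over all genes, and Prox1 and Zbtb20 lay above 0. The lowest P7 HET library for Wfs1, Fibcd1, Mpped1 and Spink8, at 16.5, 60.9, 79.0 and 1.92 CPM, was in each case replicate 1. That library was also the one with 4260 CPM of choroid plexus markers and 401 CPM of meningeal markers, where the others held at most 159.7 CPM of the first, and the part of this in the result was not tested. Without it the log2 fold changes were -0.23 for Wfs1, -0.084 for Fibcd1, -0.12 for Mpped1 and -0.34 for Spink8.

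For Fibcd1 and Mpped1 the log2 fold changes in HIP were -0.15, -0.22 and 0.033 and -0.19, -0.26 and 0.13 at E17.5, P7 and P35, with SEs from 0.083 to 0.20. For Dsp they were -0.42 ± 0.36, -0.084 ± 0.17 and 0.020 ± 0.072, and the first was 0.085 without 1 WT library, as described below. For Zbtb20 they were -0.31 ± 0.28, 0.28 ± 0.20 and -0.094 ± 0.12. None of these was called, and single libraries moved them: Zbtb20 ran from -0.48 to -0.13 at E17.5 and from 0.087 to 0.40 at P7, and Mpped1 from -0.29 to -0.051 at E17.5, when each library was left out in turn. At E17.5 all 6 members tested lay below 0 with a median of -0.25 beside 0.0024 over all genes, and at P35 5 of 8 lay above 0 with a median of 0.012 beside -0.0028. A test of whether the genotype difference varied with period in HIP called 0 of 8 members and 0% of all genes, and the member with the smallest unadjusted p was Wfs1, at 0.0799.

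**Figure D3:**
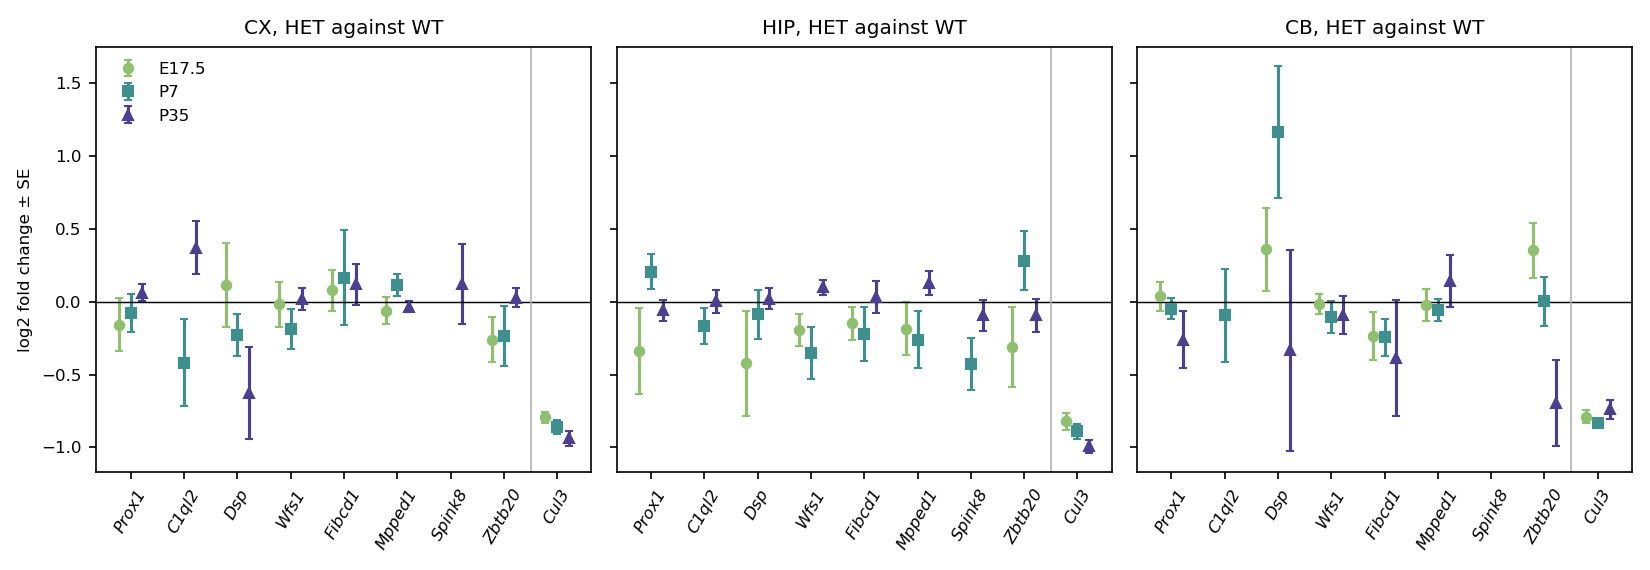
Log2 fold change of HET against WT with its SE, by member, region and period, from edgeR fits of each dataset (n = 6 and 6 mice, 5 and 5 at P35), with Cul3 at the right for comparison. Cul3 lies between -0.74 and -0.99 in all panels, and Dsp in P7 CB at 1.17 is the farthest from 0 among the members.

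In CX the members called by edgeR and by DESeq2 were 0 of 6, 0 of 7 and 0 of 8 at E17.5, P7 and P35, where edgeR called 0.00603%, 0.00566% and 0.00569% of all genes and DESeq2 0.00603%, 0.017% and 0.0228%, and none had an unadjusted p under 0.05. At E17.5 the replicate numbers of the labels paired WT and HET cortex libraries, and with that pairing as a block 55 genes and again no member were called. In CB the members called by either tool were 0 of 6, 0 of 7 and 0 of 6, where edgeR called 0.00568%, 0.0057% and 0.00584% of all genes and DESeq2 0.0114%, 0.0171% and 1.27%. At an unadjusted p under 0.05 by edgeR there were 0, 1 and 1 members in CB, where all genes gave 3.5%, 4.89% and 14.4%. Over the 24 combinations of member and period in each region, the WT and HET ranges overlapped in 24 of 24 in CX, in HIP and in CB. Overlap was the usual case over all genes too, since the ranges stood apart for 0.0663%, 0.147% and 0.632% of the genes tested in CX, 0.0645%, 0.197% and 0.853% in HIP and 0.159%, 0.217% and 3.06% in CB at E17.5, P7 and P35. None of the companion genes was called between genotypes in any dataset. The genotype difference was also tested for a change between regions, which called 0 members at each period beside 0%, 0% and 0.00525% of all genes, and Dsp at P7 had the smallest unadjusted p of the members, 0.00302, with an adjusted p of 0.826.

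In P7 and P35 CB and before birth in HIP, the libraries rich in choroid plexus markers had the highest Dsp. No E17.5 CB library passed 1000 CPM of these markers, and the one with the highest Dsp there, at 1.002 CPM, held 3.85 CPM of them. At P7 the 5 CB libraries with over 1000 CPM of these markers read 1.38 to 3.001 CPM of Dsp and the other 7 read 0.283 to 0.787, without overlap. At P35 the 4 such CB libraries read 0.749 to 2.95 CPM and the other 6 read 0.249 to 0.654. In E17.5 HIP the 1 such library, WT replicate 2 with 4650 CPM of choroid markers, read 10.5 CPM of Dsp and the other 11 read 1.89 to 4.49. In P7 HIP the library named above, HET replicate 1, had the highest Dsp, 19.5 CPM. In adult HIP, where Dsp stood at 56.3 to 76.8 CPM in the other 8 libraries, the 2 such libraries read 61.8 and 67.8 CPM and lay within that range.

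The genotype difference of Dsp in P7 CB was smaller without these libraries, of which 4 were HET and 1 was WT. It was 1.17 ± 0.45 with all libraries (unadjusted p = 0.0214, adjusted p = 0.972 by edgeR) and 0.43 ± 0.39 without the 5. In E17.5 HIP it went from -0.42 to 0.085 without WT replicate 2. None of the 5 choroid plexus markers was at 0 in any P7 or P35 library, and their sums ran from 4.32 to 1471 CPM in P7 WT CB and from 4.64 to 2689 CPM in P7 HET CB.

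**Figure D4:**
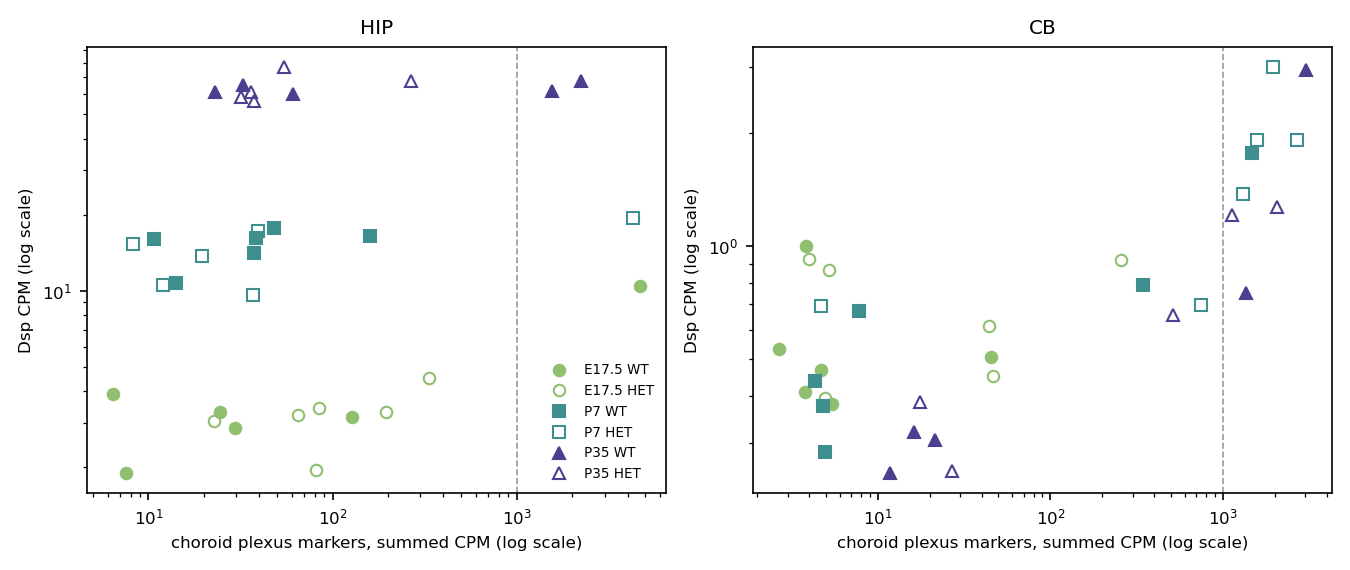
Dsp level against the summed level of 5 choroid plexus markers (Ttr, Kl, Folr1, Clic6, Kcnj13) in HIP and CB libraries, both axes in CPM on log scales, with WT filled, HET open and a dashed line at 1000 CPM. Right of the line in CB all 9 libraries read at least 0.749 CPM of Dsp, and in adult HIP the libraries right of the line lie among the rest.

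In adult CB, Prox1 and Zbtb20 were each high in the same WT libraries. Prox1 read 38.0, 35.5, 79.2, 53.9 and 38.1 CPM in WT replicates 1, 2, 3, 5 and 6 and 36.9 to 43.4 CPM in HET. Zbtb20 read 85.7, 89.3, 265.6, 203 and 104 CPM in the same WT libraries and 83.4 to 105.8 in HET. Replicates 3 and 5 thus lay above all other adult CB libraries used here for both genes. Of the 2 mice left out, the CB library of the one labelled WT read 60.2 CPM of Prox1 and 189 CPM of Zbtb20. The one labelled HET read 43.1 and 105.7 CPM. Replicates 3 and 5 also had the highest sums of 4 genes listed as thalamic markers, 785 and 754 CPM against at most 687 in the other WT libraries. These genes ran from 617 to 785 CPM over all adult WT CB libraries and from 98.8 to 134 CPM in adult WT HIP. They were thus high in every adult WT CB library, and in CB their sum cannot be read as thalamic tissue. Of 4 cortical layer markers, replicates 3 and 5 held 32.3 and 25.1 CPM against at most 17.8. Replicate 5, unlike replicate 3, was also over 1000 CPM of choroid plexus markers. The part of these markers in the result was not tested. The log2 fold change of HET against WT for Zbtb20 was -0.70 ± 0.29 (unadjusted p = 0.036, adjusted p = 0.344 by edgeR), and for Prox1 -0.26 ± 0.20.

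Within HIP, Prox1 and Zbtb20 also varied together from mouse to mouse. After the mean of each genotype was taken off the log2 CPM, Pearson's r was 0.90 and Spearman's rho 0.92 over the 12 E17.5 libraries, with permutation p-values adjusted over 71 relations of 0.0135 and 0.0163. At P7 r was 0.84 (adjusted p = 0.0497) and rho 0.83 (adjusted p = 0.20) over 12 libraries by permutation, and at P35 r was 0.89 (adjusted p = 0.0955) and rho 0.70 (adjusted p = 0.266) over 10. Without the 2 libraries farthest from the median of Prox1, r was 0.88, 0.83 and 0.62. Mouse names in the labels carry a prefix whose meaning is not given, and within the 1 prefix that covers 6 mice, at P7, r was 0.88, while the other prefixes hold at most 4 mice. No r was computed within a prefix at E17.5. The permutations were made within genotype and not within prefix, so these p-values do not allow for a difference shared by mice of 1 prefix.

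The spread behind this was widest before birth. Over the 12 E17.5 HIP libraries the highest Prox1 value was 4.32 times the lowest and the highest Zbtb20 value 3.58 times, which narrowed to 1.37 and 1.68 over the 10 adult libraries. Wfs1 had its widest spread at P7, 2.601 times, beside 1.49 at E17.5 and 1.22 at P35. Of the 71 relations between members within a period, 17 had an unadjusted permutation p under 0.05 for r, and 4 an adjusted p of at most 0.1. The fourth was Wfs1 with Spink8 at P35, with r of -0.63 (adjusted p = 0.0497) and rho of -0.77 (adjusted p = 0.20) by permutation over 10 libraries and r of -0.84 without the 2 farthest, whereas at P7 r was 0.60 (adjusted p = 0.173 by permutation). Members of 1 library share its depth, scaling and dissection, so these relations are not independent of each other.

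**Figure D5:**
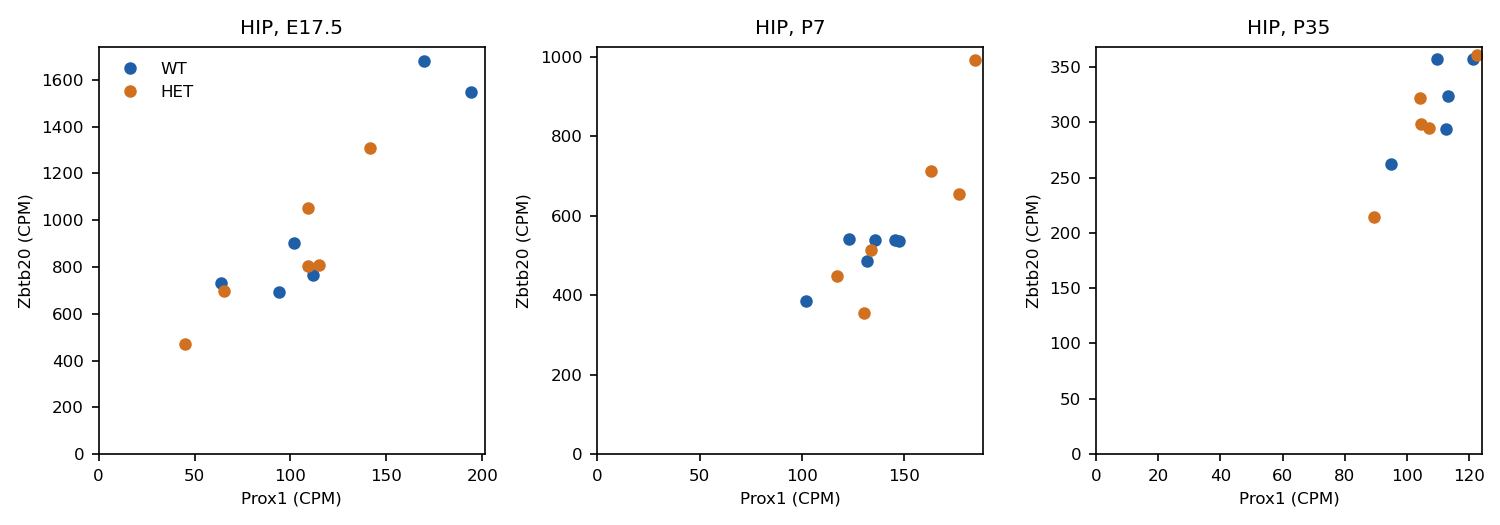
Zbtb20 against Prox1 in each HIP library, in CPM, with WT in blue and HET in orange, in separate panels for E17.5, P7 and P35 whose axes start at 0. The points of both genotypes run upwards together, from 44.9 to 194 CPM of Prox1 at E17.5 and over the narrower range of 89.3 to 122 CPM at P35.

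Across the 18 groups of period, region and genotype, the genes most like each member were sought by Pearson's r of the mean log2 CPM, as a description over groups that share mice and libraries. Uhmk1, a kinase, followed Wfs1 at r = 0.99. Itprid1 and Nxph2, a neurexophilin, followed Mpped1 at 0.99 and 0.99. Hpca, the calcium sensor hippocalcin, followed C1ql2 at 0.98, after the antisense gene Gm26560 at 0.99, and Tnfrsf21 followed Fibcd1 at 0.97. Serpinf2 and Nsmce3 followed Spink8 at 0.98 and 0.98, and Prkca, a protein kinase C, at 0.97. Dsp had the weakest likeness, 0.94 with Fam118a.

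For Prox1 and Zbtb20 the likest genes were their own neighbours. Prox1os, which lies on the opposite strand and overlaps Prox1, had r = 0.97, before Lrrc51 at 0.94 and Cfap73 at 0.93. Gm15712 and Gm15711, processed pseudogenes inside Zbtb20, had r = 0.96 and 0.92, with Klkb1 at 0.95 between them, and reads of the overlaps could be counted to either gene. Of the 24 likest genes, 3 for each member, 17 are protein coding. Among the members themselves the likest were C1ql2 and Spink8 at 0.97, one a granule cell gene and the other a CA1 gene, followed by Prox1 and Zbtb20 at 0.84. Spink8 held at most 12 counts over the WT libraries of each E17.5 group, of P7 CB and of adult CB. Its log2 values in those groups are near the floor and depend on the prior count, which limits the first of these relations.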

How the data were processed

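Per the labels, RNA was depleted of ribosomal RNA and stranded libraries were made with a TruSeq kit. The submitters' processing notes name cutadapt 1.14, STAR 2.5.3a and RSEM 1.3, with GRCm38.p5, and the authors deposited 1 table of RSEM expected counts for 53465 genes in 108 libraries. Of its values, 5.76% were not whole, and expected counts were rounded before testing. Library totals ran from 15126114 to 44411282. The 6 libraries of 2 adult mice were left out, since their genotype differs between the labels and the study's sample sheet.

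Each comparison was fitted in R 4.3.3 with edgeR 4.0.16 (TMM scaling, quasi-likelihood test) on genes that passed filterByExpr, whose minimum count was 10 and minimum total 15. The p-values were adjusted by Benjamini-Hochberg over all genes tested, with 0.1 as the threshold. The SE of a log2 fold change was taken as its size over the root of the test's F statistic. Regional comparisons used WT mice with the mouse as a block. Genotype fits had no block. The study used both sexes and had sex as a term in its fits. The labels do not give sex, so no fit here held it. The replicate numbers paired the E17.5 CX libraries (correlations of deviations 0.113 to 0.759 over 6 pairs, median 0.474), and in the other 8 datasets not every pair exceeded 0.1. Among these, the median was 0.335 in E17.5 HIP and 0.292 in E17.5 CB, against -0.030 and -0.017 for other pairs. At P7 and P35 the medians ran from -0.064 to 0.190. In E17.5 HIP 2.29% of all genes had an unadjusted edgeR p under 0.05, and 10.1% with the replicate block, so the fit without it leaves this pairing unused. Relations between members used 100000 permutations within genotype. The rule for named genes took all 8 members, the 3 genes most like each by Pearson's r over 18 groups and the companion genes at least 2-fold higher in HIP at every period, and some of the most alike genes are not reported here. Members, lists and tests were chosen with earlier results of these data known.

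Alternatives were DESeq2 1.42.0, upper-quartile scaling, no filter, RUVs factors, the replicate block, HET mice for WT mice, the 2 mice put back and each library left out. A likelihood ratio test, leaving out replicates from the interaction tests, and leaving out the 13 libraries with over 1000 CPM of choroid plexus markers were chosen after seeing the data. Fitting was tested on simulated data.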

Additional observations from a re-analysis of the deposited data

Results flagged for a closer look

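Of 132 groups of libraries examined, 5 held a value of a member far from the rest of its group, where chance gives about 1 in 20 groups. Prox1 in adult CB of HET replicate 6 was the lowest of its group, at 36.9 CPM with the next at 41.6. Dsp in E17.5 CB of WT replicate 1 was the highest, at 1.002 CPM with the next at 0.534. Fibcd1 in P7 CB of WT replicate 2 was the highest, at 44.4 CPM with the next at 31.1. In P7 HIP, Fibcd1 of HET replicate 1 was the lowest, at 60.9 CPM with the next at 115, and Zbtb20 of WT replicate 6 was the lowest, at 386 CPM with the next at 487. Choroid plexus markers summed to 2057 CPM in the Prox1 library and to 4260 CPM in the P7 Fibcd1 HIP library, and to at most 14.1 CPM in the other 3, and their part in these values was not tested.

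Wfs1 stood higher in HIP than in CX in 6 of 6 WT mice at E17.5, with a log2 fold change of 1.31, and lower in all 6 at P7, with -0.20. The difference between the periods was not tested.

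The 2 adult mice with contradictory genotypes were in no comparison, and of their 48 values 6 lay above the highest WT library of the same region and 6 below the lowest. Each WT range rests on 5 libraries, so a further library often falls outside it and these values are not unusual. In CX the high ones were Prox1 at 15.2 CPM in the mouse labelled WT (highest WT 14.2) and C1ql2 at 4.39 CPM in the one labelled HET (highest WT 3.74). In HIP they were Dsp at 74.6 CPM in the mouse labelled WT (67.8), Wfs1 at 77.5 CPM in the one labelled WT and 75.9 CPM in the one labelled HET (72.6), and Mpped1 at 201 CPM in the one labelled HET (181). The low ones were Dsp at 0.219 and 0.170 CPM in CX of both mice (lowest WT 0.245), Wfs1 at 55.8 CPM (57.3) and Fibcd1 at 6.82 CPM (7.36) in CX of the mouse labelled WT, and C1ql2 at 44.2 CPM (44.7) and Zbtb20 at 248 CPM (262) in HIP of the one labelled HET.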

How the results depend on the processing

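The number of members called was within 1.5 times the main count in 143 of 144 alternatives and in 238 of 238 fits without 1 library or mouse. The exception was genotype in P7 HIP with 5 RUVs factors, with 1 member called (Wfs1) in place of 0, while the count over all genes went from 1 to 215 of 17754. Without 1 mouse the counts were 6 to 7 for HIP against CX at E17.5, 4 to 5 for HIP against CB at E17.5, 6 to 7 for P7 against E17.5 and 5 to 6 for P35 against P7. Of the members' fold changes, 551 of 566 kept their direction and side of the threshold, 11 changed sign, 3 gained a call and 1 lost it, and without 1 library these were 746 of 768, 19, 2 and 1.

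No changed sign was a called value. For genotype in HIP, Dsp at E17.5 was 0.085 without the choroid-rich libraries, and with the 2 mice put back by their labels C1ql2 was -0.037 and Dsp -0.014 at P35, while Fibcd1 was -0.00046 with 5 RUVs factors. Wfs1 for HIP against CX at P35 was 0.081 without the choroid-rich libraries, 0.078 in HET mice, 0.0053 without a filter and 0.0064 with upper-quartile scaling, and for HIP against CB at E17.5 -0.059 in HET mice. Prox1 for P7 against E17.5 was -0.049 without the choroid-rich libraries, and Mpped1 for P35 against P7 was 0.22 in HET mice. Leaving out 1 library gave, for genotype in HIP, Dsp -0.57 to 0.085 at E17.5, -0.20 to 0.0047 at P7 and -0.045 to 0.063 at P35, and at P35 C1ql2 -0.039 to 0.076, Fibcd1 -0.047 to 0.10 and Zbtb20 -0.16 to 0.0036. It gave Wfs1 -0.076 to 0.037 for HIP against CX at P35 and Prox1 -0.051 to 0.26 for P7 against E17.5. Fibcd1 for P35 against P7 lost its call without WT replicate 3 (0.24, adjusted p = 0.114 by edgeR). The calls gained without 1 mouse were Fibcd1 for HIP against CB at E17.5 (-0.32, without WT mouse 4) and Mpped1 for P7 against E17.5 (0.33, without E17.5 WT mouse 3, adjusted p = 0.0689 by edgeR). The cause was not tested for any of these.

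With the replicate number as a block, 55 genes were called between genotypes in E17.5 CX and 0 in P35 CB, in place of 1 each, with 0 members called in every dataset, and dropping the mouse block from the regional fits changed no member's call. With 5 RUVs factors the genes called between genotypes were 2, 46 and 85 in CX, 186, 215 and 475 in HIP and 62, 259 and 181 in CB at E17.5, P7 and P35, in place of 1 each. DESeq2 called 1 to 6 genes in the 8 datasets other than P35 CB. In P35 CB, DESeq2 called 218 genes and the likelihood ratio test 150, and leaving out the choroid-rich libraries 0. Counts of 12 or fewer over a group, as for Spink8 at E17.5, allow no statement on genotype.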
